A study of Mus musculus with 3 samples.

Results

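The costimulatory receptors and ligands of the tumour necrosis factor (TNF) family were followed here as 9 of the 32285 genes counted in mouse mesenteric lymph node, the node that drains the gut. The genes were chosen by their symbols and comprise 5 receptors (Tnfrsf4, Tnfrsf18, Tnfrsf9, Tnfrsf1b and Cd27) and 4 ligands (Cd70, Tnfsf4, Tnfsf9 and Tnfsf18). Each of the 9 was found in the count files of all 3 libraries. The libraries were the LysoPS-OVA library (1 µg ovalbumin in lyso-phosphatidylserine nanoparticles), the free OVA library (1 µg ovalbumin) and the citrate buffer library (5 mM citrate, which the sample title also calls an untreated control), each given by mouth for 4 weeks. Each library held the pooled nodes of 6 animals, so there was 1 library per feeding, no replicate check of any difference and no test. For the animals, strain, age and sex are not given in the sources used here.

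TNF-family costimulation works in pairs. A ligand carried by an antigen-presenting cell binds a receptor on a T cell, the receptor recruits TRAF adaptor proteins, and the signal runs through NF-kB to genes for survival and division. OX40 (encoded by Tnfrsf4) is bound by OX40L (Tnfsf4), GITR (Tnfrsf18) by GITRL (Tnfsf18), 4-1BB (Tnfrsf9) by 4-1BBL (Tnfsf9) and CD27 by CD70, while TNFR2 (Tnfrsf1b) binds TNF itself. Regulatory T cells are known for carrying several of these receptors at rest, whereas most conventional T cells gain OX40 and 4-1BB only after activation.

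Cells were assigned by marker transcripts, none of which was one of the 9 genes. A regulatory-like Foxp3+ T barcode, for example, needed T cell transcripts and at least 1 molecule of Foxp3, and a migratory dendritic cell barcode needed at least 3 molecules of Fscn1, Ccl22, Ccl17, Cacnb3 and Nudt17 together and at least 3 times as many as of any other lineage list. The Foxp3+ T gate held 425 barcodes with LysoPS-OVA, 252 with free OVA and 296 with citrate buffer. The migratory dendritic cell gate held 832 barcodes with LysoPS-OVA, 2306 with free OVA and 1440 with citrate buffer. Markers outside the gates went with the names. Ikzf2, a transcription factor of regulatory T cells, stood at 1305, 1140 and 1256 CPM (counts of the gene scaled to a common total of all counts in the gate) in Foxp3+ T barcodes of LysoPS-OVA, free OVA and citrate buffer, against 139.7, 117 and 205 CPM in CD4 T barcodes without Foxp3. Ccr7, the receptor that brings dendritic cells to the node, stood at 543 CPM with LysoPS-OVA, 481 with free OVA and 532 with citrate buffer in migratory dendritic cell barcodes. The labels also call the samples intestinal cells, but 6 epithelial genes summed to only 4.86 CPM with LysoPS-OVA, 7.33 with free OVA and 5.13 with citrate buffer, and T, B and plasma cell barcodes made up 74.2%, 41.2% and 57.8% of those kept.

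The libraries differed in quality and in their animals before any of the 9 genes is considered. They held 84089686 molecules (UMIs) with LysoPS-OVA, 81559237 with free OVA and 96616683 with citrate buffer, in 20873, 28660 and 28927 barcodes, where 10000 cells had been loaded, and 16025, 21949 and 21871 barcodes were kept. Median UMIs per deposited barcode were 3686 with LysoPS-OVA, 1492 with free OVA and 2577 with citrate buffer, and 19.3%, 46.1% and 33.7% of kept barcodes fell in no gate. Pairs of libraries shared 166 to 194 barcode sequences, at most 0.814% of either library. In migratory dendritic cell barcodes only 8.77% with LysoPS-OVA, 8.72% with free OVA and 12.9% with citrate buffer looked like whole cells by their Malat1 and ribosomal protein transcripts, against 88.9%, 79.4% and 84.8% of Foxp3+ T barcodes. Of migratory dendritic cell barcodes with transcripts of a single sex, 89.4% with LysoPS-OVA, 88.1% with free OVA and 76.6% with citrate buffer carried Y-linked transcripts. The gap was wider in the T and B cell gates. In the same library order the shares were 82.7%, 76% and 61.3% in Foxp3+ T and 86.6%, 77.3% and 58.6% in CD4 T barcodes without Foxp3. CD8 T barcodes gave 81.3%, 81.7% and 61.4% and B barcodes 87.4%, 76.6% and 55.9%. The pools thus differed in sex makeup along with the feeding, and the part of sex makeup in the differences below was not tested. Cycling transcripts marked 2.59% (LysoPS-OVA), 3.97% (free OVA) and 6.76% (citrate buffer) of Foxp3+ T barcodes.

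Of the receptor genes 4 lie on chromosome 4. Tnfrsf4 (ENSMUSG00000029075, chr4:156013843-156016612, plus strand, GRCm38) and Tnfrsf18 (ENSMUSG00000041954, chr4:156026164-156028895, plus strand) are neighbours on mouse chromosome 4 with 9551 bases and no other protein-coding gene between them. Tnfrsf9 (ENSMUSG00000028965, chr4:150914562-150946102, plus strand) and Tnfrsf1b (ENSMUSG00000028599, chr4:145213463-145246870, minus strand) lie on it as well, and Cd27 (ENSMUSG00000030336, chr6:125232622-125237010, minus strand) on chromosome 6. The ligand genes form pairs, with Tnfsf9 (ENSMUSG00000035678, chr17:57105325-57107757, plus strand) 38239 bases from Cd70 (ENSMUSG00000019489, chr17:57145997-57149777, minus strand) and Tnfsf4 (ENSMUSG00000026700, chr1:161395409-161418410, plus strand) 76244 bases from Tnfsf18 (ENSMUSG00000066755, chr1:161494655-161505290, plus strand). Tnfrsf18, Tnfrsf9, Cd27 and Tnfsf9 each overlap a gene on the opposite strand (Gm16008, Camta1, Vamp1 and Gm11110). The strand setting of the counting was not given in the sources used here, so reads from such partners may be included in their counts.

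Promoter windows of 300 bases (250 before to 50 after the start, RefSeq on GRCm38.p6) were at hand for 6 of the 9 genes, in 7 windows. They are shown for Tnfrsf4 and for the inner start of Tnfrsf9, the pair of genes whose levels over cell types were most alike (below). Capitals mark the NF-kB consensus decamer and the AP-1 heptamer TGANTCA, each searched on both strands.
Tnfrsf4, chr4:156013445-156013744, plus strand: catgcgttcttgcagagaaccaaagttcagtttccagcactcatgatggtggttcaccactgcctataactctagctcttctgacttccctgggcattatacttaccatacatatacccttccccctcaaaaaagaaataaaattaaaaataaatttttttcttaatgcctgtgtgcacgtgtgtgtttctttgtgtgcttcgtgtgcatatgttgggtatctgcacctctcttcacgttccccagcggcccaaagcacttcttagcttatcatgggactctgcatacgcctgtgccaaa
Tnfrsf9 inner start, chr4:150927749-150928048, plus strand: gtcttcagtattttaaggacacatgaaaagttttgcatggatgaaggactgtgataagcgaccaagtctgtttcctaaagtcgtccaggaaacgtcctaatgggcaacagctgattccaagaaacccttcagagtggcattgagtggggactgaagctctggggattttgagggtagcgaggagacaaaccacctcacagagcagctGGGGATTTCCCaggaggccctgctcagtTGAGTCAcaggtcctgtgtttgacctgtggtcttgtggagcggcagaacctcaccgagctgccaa
The Tnfrsf9 window held 2 overlapping NF-kB matches, 43 bases before the start, and 1 AP-1 match 15 bases before it. The Tnfrsf4 window held neither motif, nor did the outer start of Tnfrsf9 or the windows of Tnfrsf18, Tnfrsf1b, Cd27 and Tnfsf18. Over all 32851 promoter windows of the same length, 8.46% held the NF-kB decamer and 7.81% the AP-1 heptamer. A match describes the letters only and was not tied to binding or to expression here.

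Among gates with at least 50 barcodes, Tnfrsf4 was highest in migratory dendritic cells, above Foxp3+ T cells, in all 3 libraries. It stood at 325 CPM (95% interval 297 to 355) in migratory dendritic cell barcodes of LysoPS-OVA, 287 CPM (272 to 302) of free OVA and 319 CPM (298 to 340.1) of citrate buffer. In Foxp3+ T barcodes it stood at 207 CPM (189 to 226) with LysoPS-OVA, 216 CPM (193 to 241) with free OVA and 234 CPM (210.5 to 259.8) with citrate buffer. The level in migratory dendritic cells exceeded that in Foxp3+ T cells 1.57-fold (1.38 to 1.78) with LysoPS-OVA, 1.33-fold (1.18 to 1.5) with free OVA and 1.36-fold (1.2 to 1.54) with citrate buffer, with every interval above 1. With Foxp3+ T barcodes required to hold at least 2 Foxp3 molecules, the ratio was 1.3 and 1.2 with LysoPS-OVA and free OVA but 0.883 (0.758 to 1.03) with citrate buffer, so the order in that library depends on the gate. All intervals given here are 95% and cover counting error only, since barcodes of a library share their animals and their preparation.

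The dendritic cell signal for Tnfrsf4 was spread over many barcodes. It came from 503, 1408 and 907 UMIs in 294, 823 and 546 barcodes of LysoPS-OVA, free OVA and citrate buffer, with at most 9, 22 and 8 UMIs in a single barcode. In Foxp3+ T cells 502 UMIs with LysoPS-OVA, 325 with free OVA and 356 with citrate buffer came from 174, 103 and 116 barcodes, with up to 21, 34 and 41 in a single barcode. Single Foxp3+ T barcodes thus reached higher raw counts than single dendritic cell barcodes, but they were also deeper (medians below), and the part of depth was not tested. With every barcode thinned to 1000 UMIs, 26.1% (LysoPS-OVA), 22.3% (free OVA) and 25.8% (citrate buffer) of migratory dendritic cell barcodes held a Tnfrsf4 molecule, against 11.8%, 14% and 15.3% of Foxp3+ T barcodes. Follicular B barcodes, which served as the background, gave 0.296% with LysoPS-OVA, 0.417% with free OVA and 0.817% with citrate buffer after the same thinning. Median UMIs before thinning were 1491 with LysoPS-OVA, 1776 with free OVA and 1702 with citrate buffer in migratory dendritic cells, 5092, 5633 and 4614 in Foxp3+ T cells and 4379, 5329 and 3618 in follicular B cells, and thinning left out 21.4%, 13.4% and 7.85% of the dendritic cell barcodes as too shallow. Among the few whole-cell-like dendritic cell barcodes Tnfrsf4 stood at 300.2 CPM with LysoPS-OVA, 249 with free OVA and 295 with citrate buffer, near the 328, 290.1 and 322 CPM of the rest. Within whole-cell-like barcodes the ratio over Foxp3+ T cells was 1.47 (1.07 to 1.96) with LysoPS-OVA, 1.21 (0.944 to 1.54) with free OVA and 1.27 (0.996 to 1.61) with citrate buffer, so only the LysoPS-OVA interval left out 1.

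T cell transcripts were low in the dendritic cell gate. A list of 7 T cell genes not used for gating summed to 227 CPM with LysoPS-OVA, 149 with free OVA and 313 with citrate buffer in migratory dendritic cells, against 2772, 2455 and 2672 CPM in Foxp3+ T cells. Cd27, a receptor of nearly all T cells, stood at 22.6 CPM with LysoPS-OVA, 8.16 with free OVA and 29.9 with citrate buffer in migratory dendritic cells and at 284, 254 and 251 CPM in Foxp3+ T cells. Resident dendritic cells of the cDC1 kind held 0 (LysoPS-OVA), 0 (free OVA) and 1 (citrate buffer) Tnfrsf4 UMIs in 45, 123 and 59 barcodes. Migratory dendritic cells alone carried 23.9% (LysoPS-OVA), 47.6% (free OVA) and 29% (citrate buffer) of all Tnfrsf4 molecules of the kept barcodes, and Foxp3+ T cells 23.8%, 11% and 11.4%.

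Among the CD4 T gates Tnfrsf4 was highest in the Foxp3+ and the effector-memory gates. The Foxp3+ T level was 8.88-fold (7.67 to 10.3) that of CD4 T cells without Foxp3 with LysoPS-OVA, 10.5-fold (8.64 to 12.8) with free OVA and 5.93-fold (5.09 to 6.9) with citrate buffer. Effector-memory CD4 T barcodes, gated by Cd44, S100a4, Itgb1, Icos and Maf, stood at 124 CPM with LysoPS-OVA, 79.5 with free OVA and 169 with citrate buffer, against 9.34, 9.07 and 22 CPM in naive CD4 T barcodes, or 13.2-fold, 8.77-fold and 7.69-fold higher. Follicular helper T barcodes lay between them at 61.4 CPM with LysoPS-OVA, 58.5 with free OVA and 125 with citrate buffer. In CD8 T barcodes the gene stood at 6.81 CPM with LysoPS-OVA, 6.41 with free OVA and 20 with citrate buffer and in B barcodes at 3.19, 4.25 and 7.62 CPM. Foxp3 itself was sparse, with 780, 470 and 459 molecules in the 425, 252 and 296 Foxp3+ T barcodes of LysoPS-OVA, free OVA and citrate buffer. A regulatory T cell with no Foxp3 molecule counted could fall in the effector-memory gate. The part of such cells was not tested, here or for the other genes.

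**Figure D1:**
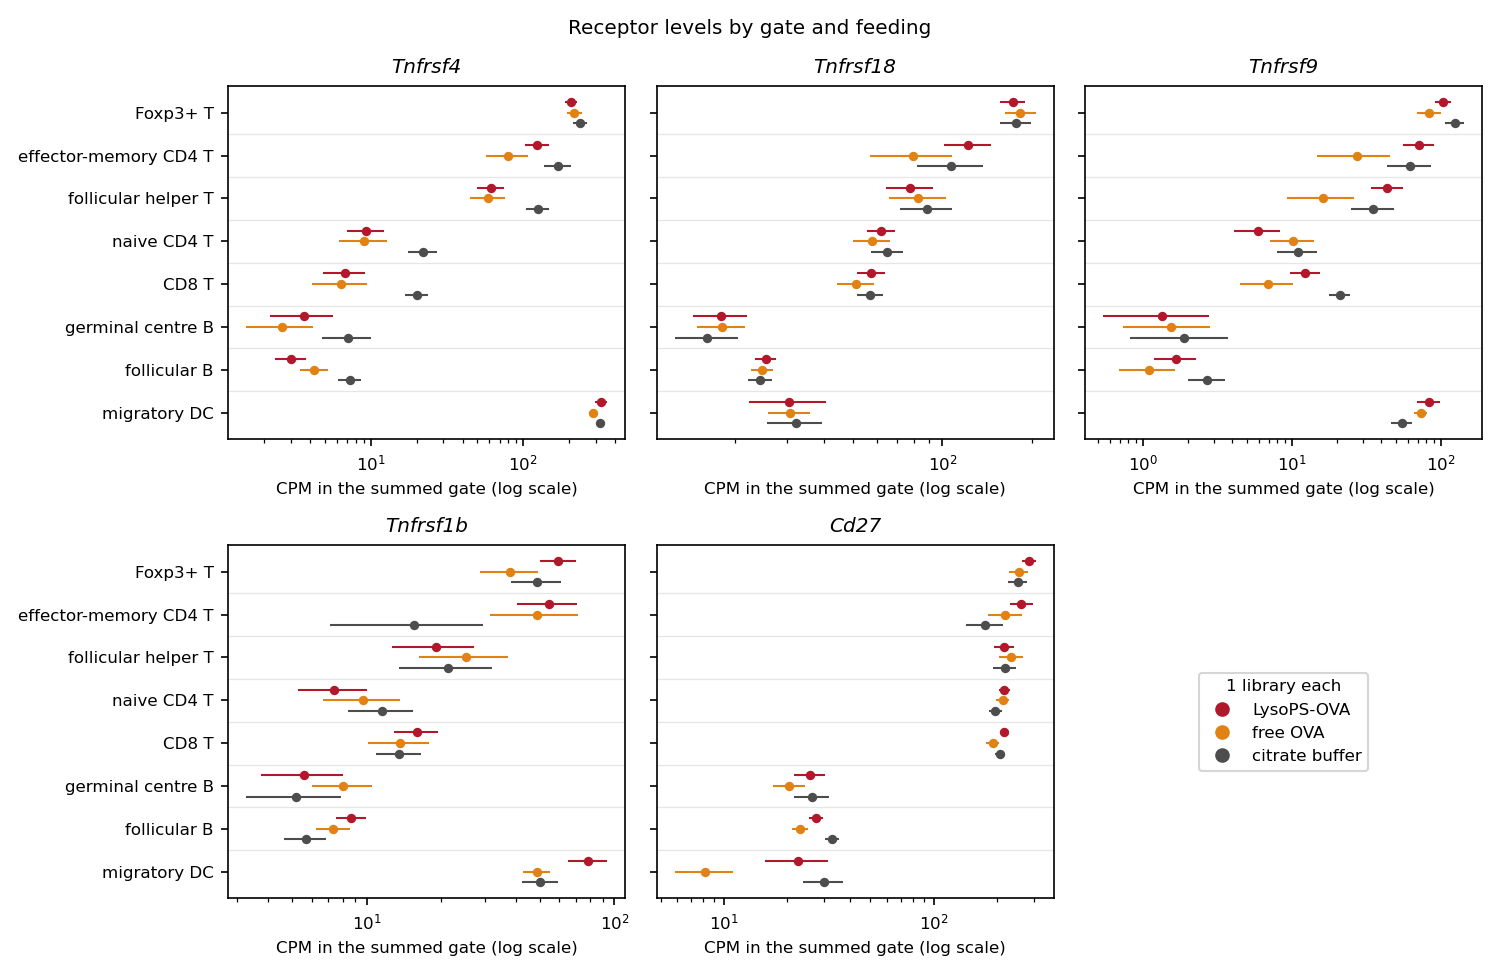
Levels of the 5 receptor genes by gated cell type, in CPM on a log axis, with 1 point per library and bars for the 95% counting interval. Tnfrsf4 peaks in migratory dendritic cells (287 to 325 CPM) ahead of Foxp3+ T cells (207 to 234 CPM), while Tnfrsf18 and Cd27 peak in Foxp3+ T cells among the 8 cell types plotted.

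Tnfrsf18, which encodes GITR, ordered the cells differently from its neighbour Tnfrsf4. It was highest in Foxp3+ T cells, at 173, 183 and 177 CPM with LysoPS-OVA, free OVA and citrate buffer, and the intervals of the 3 libraries overlapped. CD4 T cells without Foxp3 stood at 65.8 CPM with LysoPS-OVA, 61.2 with free OVA and 74.7 with citrate buffer, so Foxp3+ T cells were 2.62-fold (2.32 to 2.95), 3-fold (2.57 to 3.49) and 2.37-fold (2.04 to 2.73) higher. CD8 T cells held 57.5 CPM with LysoPS-OVA, 51 with free OVA and 57 with citrate buffer and naive CD4 T cells 62.2, 57.7 and 65 CPM, so resting T cells carried the transcript as well.

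Migratory dendritic cells, where Tnfrsf4 was highest, held only 30.4 CPM (LysoPS-OVA), 30.6 (free OVA) and 32 (citrate buffer) of Tnfrsf18. That was 0.176-fold (LysoPS-OVA), 0.167-fold (free OVA) and 0.181-fold (citrate buffer) the Foxp3+ T level, against ratios above 1 for Tnfrsf4 in the same barcodes. It lay near the 23.8, 22.6 and 22.5 CPM of B cells, and the interval of the ratio of migratory dendritic cells over B cells held 1 with LysoPS-OVA (1.28, 0.929 to 1.72) but not with free OVA (1.35, 1.13 to 1.62) or citrate buffer (1.42, 1.12 to 1.77). Within B cells, germinal centre barcodes stood at 17.9 CPM with LysoPS-OVA, 18.1 with free OVA and 16.1 with citrate buffer, below the 25.4, 24.7 and 24.3 CPM of follicular barcodes in all 3 libraries. The Tnfrsf18 counts may include reads of the antisense gene Gm16008, which spans it.

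Tnfrsf9, which encodes 4-1BB, followed Tnfrsf4 in being carried by both Foxp3+ T cells and migratory dendritic cells. Foxp3+ T cells stood at 103 CPM (90.8 to 117) with LysoPS-OVA, 83.7 CPM (69.7 to 99.7) with free OVA and 124 CPM (107 to 143) with citrate buffer. Migratory dendritic cells stood at 82.8 CPM (69 to 98.4) with LysoPS-OVA, 73.2 CPM (65.8 to 81.2) with free OVA and 54.8 CPM (46.5 to 64.1) with citrate buffer. The dendritic cell level was 0.802-fold (0.643 to 0.997), 0.874-fold (0.712 to 1.08) and 0.441-fold (0.354 to 0.548) that of Foxp3+ T cells, a gap beyond counting error in the LysoPS-OVA and citrate buffer libraries but not in the free OVA library. In whole-cell-like barcodes alone that ratio was 1.39 (0.865 to 2.15) with LysoPS-OVA, 0.585 (0.34 to 0.955) with free OVA and 0.42 (0.239 to 0.691) with citrate buffer.

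The effector-memory CD4 T gate held Tnfrsf9 as well, with the same limit on Foxp3 detection. Naive T cells and B cells held little Tnfrsf9. CD4 T cells without Foxp3 held 14.8 CPM with LysoPS-OVA, 13 with free OVA and 17 with citrate buffer, and Foxp3+ T cells were 6.95-fold, 6.46-fold and 7.3-fold higher. B cells held 1.61 CPM with LysoPS-OVA, 1.38 with free OVA and 2.79 with citrate buffer. Effector-memory CD4 T cells stood at 71.6 CPM with LysoPS-OVA, 27.2 with free OVA and 62.1 with citrate buffer from 70, 14 and 36 UMIs, against 5.93, 10.2 and 11 CPM in naive CD4 T cells. After thinning to 1000 UMIs, 8.94% (LysoPS-OVA), 7.2% (free OVA) and 8.47% (citrate buffer) of Foxp3+ T barcodes and 5.96%, 6.06% and 4.75% of migratory dendritic cell barcodes held a Tnfrsf9 molecule, against 0.0988%, 0.13% and 0.258% of follicular B barcodes.

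Tnfrsf1b, which encodes TNFR2, was shared between lymphoid and myeloid cells. It stood at 78.2, 48.5 and 50.2 CPM in migratory dendritic cells and at 59.4, 37.9 and 48.7 CPM in Foxp3+ T cells with LysoPS-OVA, free OVA and citrate buffer. Only with LysoPS-OVA did the interval of the dendritic cell over Foxp3+ T ratio leave out 1 (1.32, 1.03 to 1.69; 1.28, 0.956 to 1.74 with free OVA; 1.03, 0.774 to 1.39 with citrate buffer). Neutrophil and monocyte barcodes, which numbered 82 with LysoPS-OVA, 229 with free OVA and 216 with citrate buffer, stood at 148, 25 and 71.2 CPM from only 21, 9 and 28 UMIs.

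Foxp3+ T cells also held more Tnfrsf1b than CD4 T cells without Foxp3. They exceeded CD4 T cells without Foxp3 by 5.08-fold (4.01 to 6.44) with LysoPS-OVA, 2.67-fold (1.9 to 3.72) with free OVA and 3.52-fold (2.59 to 4.75) with citrate buffer, against levels of 11.7, 14.2 and 13.8 CPM in the cells without Foxp3. Effector-memory CD4 T cells stood at 54.2 CPM with LysoPS-OVA, 48.5 with free OVA and 15.5 with citrate buffer from 53, 25 and 9 UMIs, so the ovalbumin-fed libraries were 3.49-fold (1.71 to 8.05) and 3.12-fold (1.41 to 7.61) above citrate buffer there. Cycling transcripts marked 2.7% (LysoPS-OVA), 4.6% (free OVA) and 19.8% (citrate buffer) of those effector-memory barcodes, and the part of that difference was not tested.

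Cd27, the receptor of CD70, was a general T cell transcript. Foxp3+ T cells stood at 284, 254 and 251 CPM, CD4 T cells without Foxp3 at 215, 206 and 195 CPM and CD8 T cells at 217, 191 and 207 CPM with LysoPS-OVA, free OVA and citrate buffer. Foxp3+ T cells exceeded CD4 T cells without Foxp3 by 1.32-fold (1.21 to 1.43) with LysoPS-OVA, 1.23-fold (1.1 to 1.38) with free OVA and 1.28-fold (1.14 to 1.43) with citrate buffer, a far narrower gap than for Tnfrsf4 or Tnfrsf9. Effector-memory and naive CD4 T cells differed by 1.2-fold (1.05 to 1.38), 1.03-fold (0.837 to 1.26) and 0.891-fold (0.718 to 1.1), beyond counting error with LysoPS-OVA only. B cells held 27.1 CPM with LysoPS-OVA, 22.1 with free OVA and 32.1 with citrate buffer, and the opposite-strand gene Vamp1 spans Cd27.

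Of the ligands only Cd70 reached a level that could be compared, and it was a transcript of migratory dendritic cells. These cells held 24 of 45 Cd70 UMIs (53.3%) with LysoPS-OVA, 79 of 136 (58.1%) with free OVA and 151 of 207 (72.9%) with citrate buffer, and most of the rest was in barcodes outside every gate (35.6%, 23.5% and 20.8%). The level was 15.5 CPM (9.94 to 23.1) with LysoPS-OVA, 16.1 CPM (12.8 to 20.1) with free OVA and 53 CPM (44.9 to 62.2) with citrate buffer. After thinning, 1.22% (LysoPS-OVA), 1.25% (free OVA) and 4.9% (citrate buffer) of migratory dendritic cell barcodes held a Cd70 molecule, against 0 of 431, 0 of 226 and 0 of 621 naive CD8 T barcodes, which allows shares of up to 0.696%, 1.33% and 0.483%. Naive CD8 T barcodes had median UMIs of 5738 with LysoPS-OVA, 6685 with free OVA and 4503 with citrate buffer, above the 1491, 1776 and 1702 of the dendritic cells. Foxp3+ T cells held 0 Cd70 UMIs in each library, which allows up to 1.24 CPM with LysoPS-OVA, 1.99 with free OVA and 1.97 with citrate buffer (3 counts), and B cells held 4, 16 and 5.

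The other 3 ligands had few molecules in all. Tnfsf9, the ligand of 4-1BB, had 121 UMIs with LysoPS-OVA, 190 with free OVA and 76 with citrate buffer in all kept barcodes. It was thinly spread, with 3.23, 9.79 and 6.67 CPM in migratory dendritic cells (5, 48 and 19 UMIs) and 1.64, 2.23 and 0.864 CPM in B cells (50, 66 and 22 UMIs). Plasma cells stood at 8.9 CPM with LysoPS-OVA and 2.92 with free OVA, from only 8 and 3 UMIs. Foxp3+ T cells held 1.65, 5.31 and 0 CPM of Tnfsf9 and CD4 T cells without Foxp3 1.61, 2 and 0.828 CPM. Germinal centre B cells held 1.73, 4.32 and 2.6 CPM of it, against 1.54, 1.67 and 0.545 CPM in follicular B cells, and the intervals of that ratio left out 1 with free OVA (2.59, 1.52 to 4.39) and citrate buffer (4.77, 1.84 to 12.5) but not with LysoPS-OVA (1.12, 0.475 to 2.36). In naive CD8 T barcodes, the background for ligands, 4 (LysoPS-OVA), 2 (free OVA) and 0 (citrate buffer) Tnfsf9 UMIs were counted, or 1.57, 1.32 and 0 CPM, so the B cell level lay close to it.

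Tnfsf4, which encodes OX40L, had 40 UMIs with LysoPS-OVA, 39 with free OVA and 38 with citrate buffer in all, of which migratory dendritic cells, the highest carriers of its receptor, held 0, 2 and 1. Tnfsf18, which encodes GITRL, had 9 UMIs with LysoPS-OVA, 6 with free OVA and 11 with citrate buffer in all, with 0 in migratory dendritic cells of each library, which allows up to 1.94, 0.612 and 1.05 CPM. Only 11 barcodes with LysoPS-OVA, 15 with free OVA and 28 with citrate buffer passed the fibroblast gate, so ligand made by stromal cells was not measured here.

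**Figure D2:**
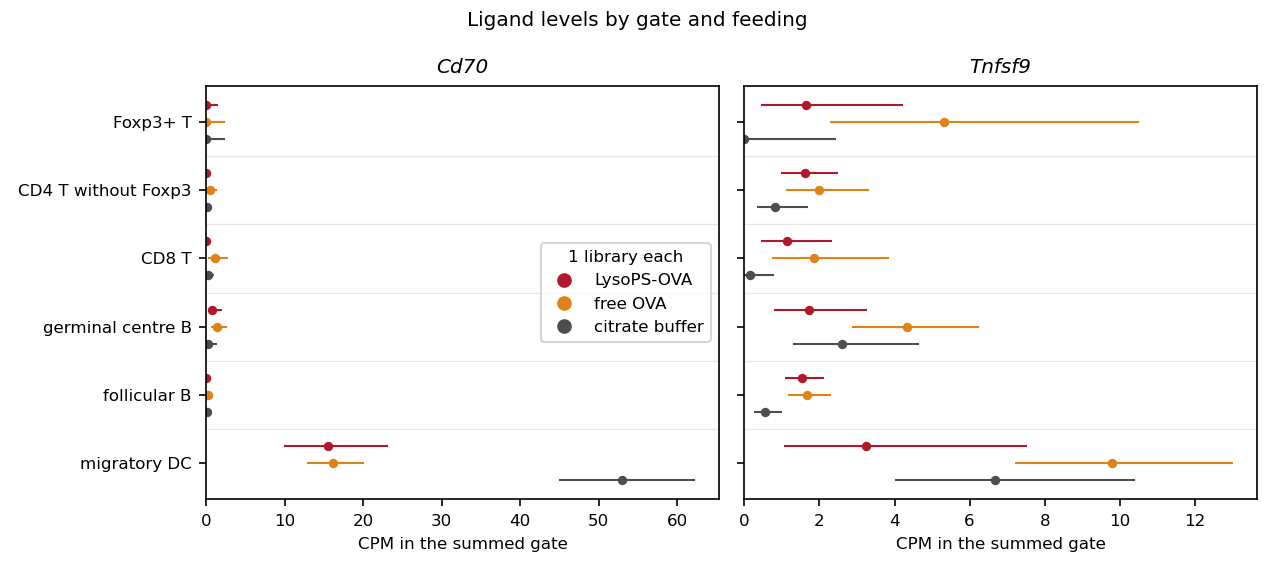
Levels of Cd70 and Tnfsf9 by gated cell type, in CPM on linear axes that differ between the panels, with 1 point per library and bars for the 95% counting interval. Cd70 in migratory dendritic cells (migratory DC) stands at 15.5 CPM with LysoPS-OVA and 16.1 CPM with free OVA, against 53 CPM with citrate buffer, while Tnfsf9 stays under 10 CPM in every cell type plotted.

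Feeding was then compared in 5 cell types. A gene counted as measured in a cell type with at least 20 CPM and 30 UMIs in the higher library, and as higher or lower when its level, with 10 CPM added, differed by 1.5-fold or more. The 3 comparisons share libraries in pairs and are given side by side. Of the 45 combinations of gene and cell type, 19 were measured for LysoPS-OVA against citrate buffer and 1 was called. For LysoPS-OVA against free OVA 17 were measured and 2 called, and for free OVA against citrate buffer 19 were measured and 4 called. By cell type, 2.01% to 8.87% of all measured genes were called for LysoPS-OVA against citrate buffer. The shares ran from 0.463% to 12.9% for LysoPS-OVA against free OVA and from 1.88% to 12.6% for free OVA against citrate buffer.

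In Foxp3+ T cells 5 genes were measured and 0 were called in each comparison, where 5.21% of all measured genes were called between LysoPS-OVA and citrate buffer, 2.46% between LysoPS-OVA and free OVA and 6.97% between free OVA and citrate buffer. The levels of Tnfrsf4 (207, 216 and 234 CPM), Tnfrsf18 (173, 183 and 177 CPM) and Cd27 (284, 254 and 251 CPM) lay within 1.5-fold of each other across the libraries. Tnfrsf1b came nearest to a call, at 59.4 CPM with LysoPS-OVA and 37.9 CPM with free OVA, a ratio of 1.57 (1.15 to 2.17). That ratio passed 1.5-fold before 10 CPM was added and missed it after. Tnfrsf9 stood at 83.7 CPM with free OVA and 124 CPM with citrate buffer, a ratio of 0.673 (0.533 to 0.848). With at least 2 Foxp3 molecules per barcode both passed 1.5-fold: the Tnfrsf1b ratio of LysoPS-OVA over free OVA was 1.79 and over citrate buffer 1.63, and the Tnfrsf9 ratio to citrate buffer was 0.647 with LysoPS-OVA and 0.55 with free OVA. In the same barcodes Tnfrsf4 moved to ratios to citrate buffer of 0.694 with LysoPS-OVA and 0.662 with free OVA, and Tnfrsf18 to 0.786 and 0.802, without a call once 10 CPM was added. That gate was chosen after the data had been seen.

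In CD4 T cells without Foxp3, Tnfrsf4 was the only call among the 3 genes measured. It fell to 20.6 CPM with free OVA, against 39.5 CPM with citrate buffer, a ratio of 0.521 (0.428 to 0.632), in a comparison where 1.88% of all measured genes were called. LysoPS-OVA stood at 23.3 CPM, a ratio of 0.59 (0.503 to 0.693) to citrate buffer that missed the threshold with the added 10 CPM, and 0 of 3 genes were called there (background 2.01%) or against free OVA (background 0.463%). The same direction was seen in parts of the CD4 T gate and in other lymphocytes: LysoPS-OVA over citrate buffer gave 0.425 in naive CD4 T, 0.493 in follicular helper T, 0.193 in naive CD8 T and 0.412 in follicular B barcodes, and free OVA over citrate buffer gave 0.413, 0.47, 0.379 and 0.587. Transcripts of migratory dendritic cells outside the gating list (5 genes) were also highest with citrate buffer in those cells, with 24.2, 35.7 and 48.1 CPM in CD4 T cells without Foxp3 and 114, 116 and 171 CPM in follicular B cells of LysoPS-OVA, free OVA and citrate buffer, and their part was not tested. With barcodes thinned to 1000 UMIs before gating, the CD4 T ratio of free OVA over citrate buffer was 0.814.

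In CD8 T cells Tnfrsf9 was the only call among the genes measured. It fell to 6.94 CPM with free OVA, against 21 CPM with citrate buffer, a ratio of 0.33 (0.209 to 0.504), where 1.92% of all measured genes were called. LysoPS-OVA stood at 12.3 CPM, a ratio of 0.586 (0.438 to 0.779) to citrate buffer that was not called (0 of 3 genes, background 2.06%), and 0 of 2 genes were called between LysoPS-OVA and free OVA (background 0.582%). Naive CD8 T barcodes were also highest with citrate buffer, from 8 UMIs with LysoPS-OVA, 5 with free OVA and 43 with citrate buffer, or 3.13, 3.29 and 14.5 CPM. Cycling transcripts marked 1.04%, 0.962% and 5.39% of CD8 T barcodes, and without those barcodes the ratio of free OVA over citrate buffer was 0.346. Tnfrsf4 in CD8 T cells rounds to 20 CPM with citrate buffer but lay just under that limit, so it did not count as measured. Its ratios to citrate buffer were 0.34 (0.235 to 0.484) with LysoPS-OVA and 0.32 (0.199 to 0.497) with free OVA. They came from 42 UMIs with LysoPS-OVA, 24 with free OVA and 139 with citrate buffer. In B cells Tnfrsf18 and Cd27 were measured and 0 of 2 were called in each comparison, with backgrounds of 2.72% for LysoPS-OVA against citrate buffer, 0.522% for LysoPS-OVA against free OVA and 2.11% for free OVA against citrate buffer.

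In migratory dendritic cells Cd70 was lower with both forms of ovalbumin. It fell to 15.5 CPM with LysoPS-OVA, against 53 CPM with citrate buffer, a ratio of 0.293 (0.182 to 0.452) and the only call among 6 genes (background 8.87%). With free OVA it fell to 16.1 CPM, a ratio of 0.304 (0.228 to 0.401) to citrate buffer, and LysoPS-OVA over free OVA was 0.963 (0.583 to 1.54). The counts were spread, at 24 UMIs with LysoPS-OVA, 79 with free OVA and 151 with citrate buffer in 18, 59 and 110 barcodes with at most 4, 6 and 7 in a single barcode.

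The gap in Cd70 was smaller in whole-cell-like barcodes. In these barcodes alone Cd70 stood at 35.3 CPM (13 to 76.9) with LysoPS-OVA, 29.8 CPM (14.9 to 53.3) with free OVA and 48.1 CPM (26.9 to 79.3) with citrate buffer, from 6, 11 and 15 UMIs, giving ratios to citrate buffer of 0.735 and 0.62 with overlapping intervals. In the other barcodes it stood at 13.1 CPM with LysoPS-OVA, 15 with free OVA and 53.7 with citrate buffer. Over the remaining 9 of 10 alternative settings the ratios stayed between 0.264 and 0.377. The share of whole-cell-like barcodes, of cycling barcodes (0.721%, 0.737% and 2.5%) and of single-sex barcodes with Y-linked transcripts moved with the feeding in this gate, and their part was not tested.

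The other calls in migratory dendritic cells were Tnfrsf1b and Cd27. Tnfrsf1b was higher with LysoPS-OVA than with free OVA, 78.2 against 48.5 CPM, a ratio of 1.61 (1.28 to 2.02), and stood 1.56-fold (1.21 to 2) above citrate buffer without being called. Its excess over free OVA was 1.14 when each barcode had the same weight and 1.19 after thinning. Cd27 stood at 22.6 CPM with LysoPS-OVA, 8.16 with free OVA and 29.9 with citrate buffer, called higher with LysoPS-OVA than with free OVA (2.77, 1.71 to 4.48) and lower with free OVA than with citrate buffer (0.273, 0.183 to 0.402). The T cell list in the same barcodes followed the same order (227, 149 and 313 CPM), and its part was not tested.

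Those counts stand against a high background. In migratory dendritic cells 12.9% of all measured genes were called between LysoPS-OVA and free OVA (2 of 5 of the genes described here), 606 genes higher and 37 lower with LysoPS-OVA, and 12.6% between free OVA and citrate buffer (2 of 6), 43 higher and 601 lower with free OVA. The median of all measured genes was itself shifted there, by 0.16 and -0.25 log2. Tnfrsf4 was not called in these cells: its ratios were 1.02 (0.913 to 1.14) for LysoPS-OVA over citrate buffer, 1.13 (1.02 to 1.26) for LysoPS-OVA over free OVA and 0.901 (0.828 to 0.98) for free OVA over citrate buffer. Tnfrsf9 stood 1.51-fold (1.19 to 1.92) higher with LysoPS-OVA than with citrate buffer without being called. Free OVA over citrate buffer gave 1.34 (1.1 to 1.62) and LysoPS-OVA over free OVA 1.13 (0.917 to 1.39), also without a call.

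**Figure D3:**
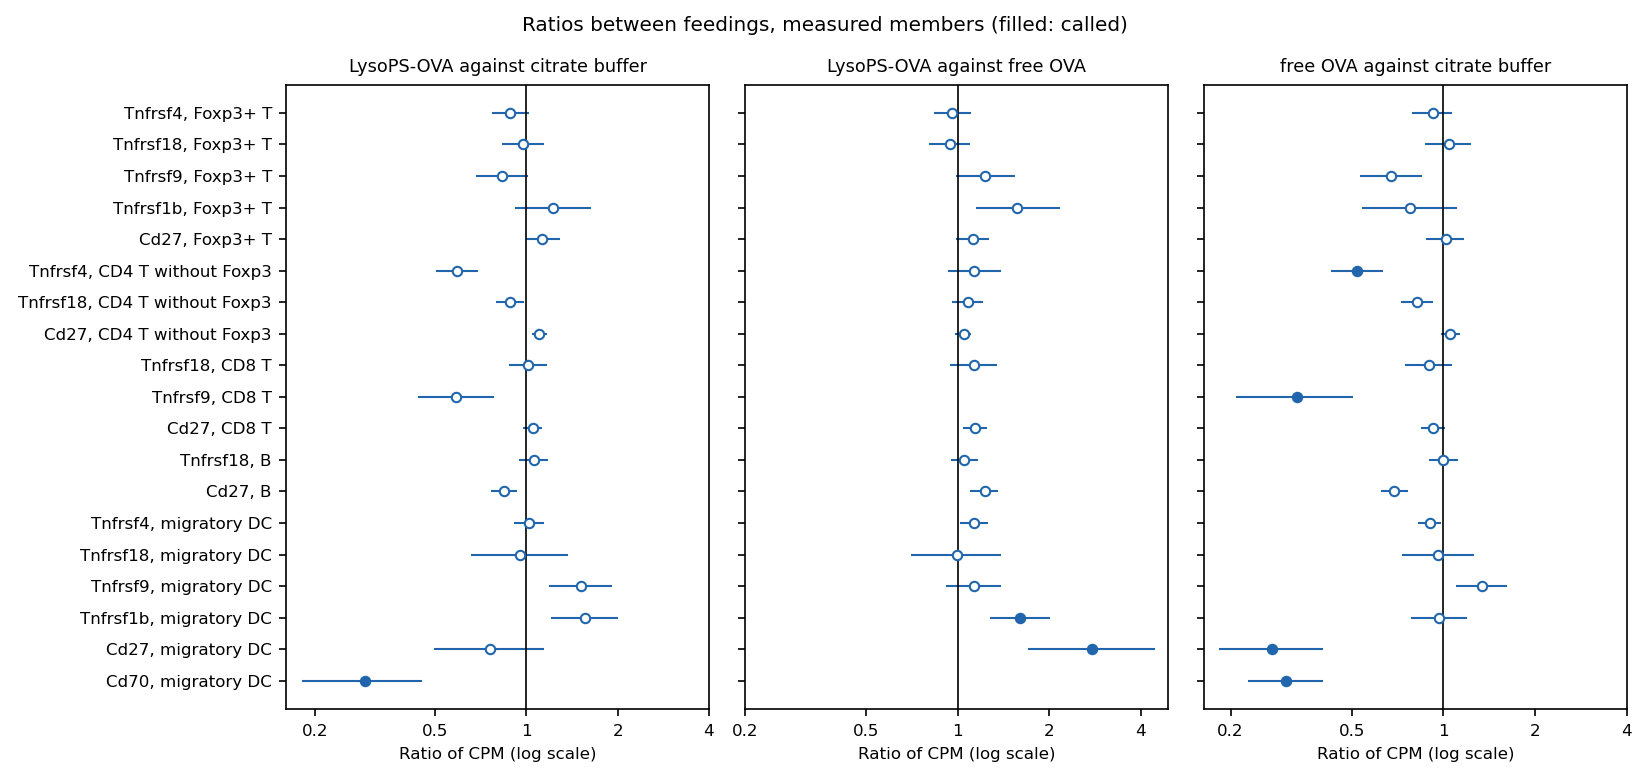
Ratios of CPM between feedings for each measured gene and cell type, on a log scale with 95% counting intervals, with a line at 1 and filled points for called differences. Cd70 in migratory dendritic cells stands at 0.293 with LysoPS-OVA and 0.304 with free OVA relative to citrate buffer, while 0 of the 5 receptors in Foxp3+ T cells are filled.

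The receptors were then looked at barcode by barcode, with each barcode thinned to 1000 UMIs. In Foxp3+ T cells with a Tnfrsf4 molecule, 34% (21.2 to 48.8) with LysoPS-OVA, 17.1% (6.56 to 33.6) with free OVA and 42.2% (27.7 to 57.8) with citrate buffer also held Tnfrsf18, against 14.7%, 18.1% and 14% of those without Tnfrsf4. Tnfrsf9 was found in 22% (LysoPS-OVA), 5.71% (free OVA) and 22.2% (citrate buffer) of those with Tnfrsf4, against 7.2%, 7.44% and 6% of the rest. Tnfrsf18 and Tnfrsf9 were thus found more often in barcodes with Tnfrsf4 than in the rest with LysoPS-OVA and citrate buffer, and not with free OVA at this depth. Cd27 was found in 24% (LysoPS-OVA), 22.9% (free OVA) and 35.6% (citrate buffer) of barcodes with Tnfrsf4, against 27.5%, 19.5% and 21.2% of the rest, lower with LysoPS-OVA. With 2000 UMIs per barcode the free OVA library showed the same direction as the others, with Tnfrsf18 in 33.3% against 24.7% and Tnfrsf9 in 26.7% against 7.65%. The Tnfrsf18 intervals overlapped there (21.7 to 46.7 against 18.4 to 31.9), and those of Tnfrsf9 did not. In whole-cell-like barcodes of that library the shares were near equal, with Tnfrsf18 in 17.2% against 17.8% and Tnfrsf9 in 6.9% against 7.69%. The free OVA share of Tnfrsf18 at 1000 UMIs came from 6 of 35 barcodes.

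Tnfrsf1b was found in 16% (LysoPS-OVA), 11.4% (free OVA) and 13.3% (citrate buffer) of Foxp3+ T barcodes with Tnfrsf4 against 3.73%, 2.33% and 2.8% of those without. These shares came from 8, 4 and 6 barcodes, and the intervals overlapped with free OVA and citrate buffer. At 2000 UMIs the shares were 21%, 10% and 17.7% against 8.12%, 6.47% and 4.59%, with intervals that overlapped with free OVA only. Of Foxp3+ T barcodes, 71.1% with LysoPS-OVA, 65.6% with free OVA and 70.2% with citrate buffer held no molecule of Tnfrsf4, Tnfrsf18 or Tnfrsf9 at 1000 UMIs, which limits detection and not expression. In CD4 T cells without Foxp3, Tnfrsf9 was found in 8.33% (LysoPS-OVA), 10.5% (free OVA) and 12.8% (citrate buffer) of barcodes with Tnfrsf4 against 1.06%, 0.969% and 1.21% of the rest. In migratory dendritic cells Tnfrsf9 was found in 8.77%, 7.85% and 4.09% of barcodes with Tnfrsf4 against 4.97%, 5.54% and 4.97% without, and Cd70 in 1.17%, 1.35% and 4.09% against 1.24%, 1.22% and 5.18%. At 2000 UMIs Tnfrsf9 was found in 20.6% (LysoPS-OVA), 14.7% (free OVA) and 12.9% (citrate buffer) of those with Tnfrsf4, against 11.7%, 11.7% and 6.42% without. The share was higher with Tnfrsf4 in all 3 libraries at that depth, but the intervals overlapped in each. Only 247, 978 and 498 dendritic cell barcodes were that deep. In whole-cell-like dendritic cell barcodes the shares were 5% against 4.81% with free OVA and 5.13% against 6.8% with citrate buffer.

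**Figure D4:**
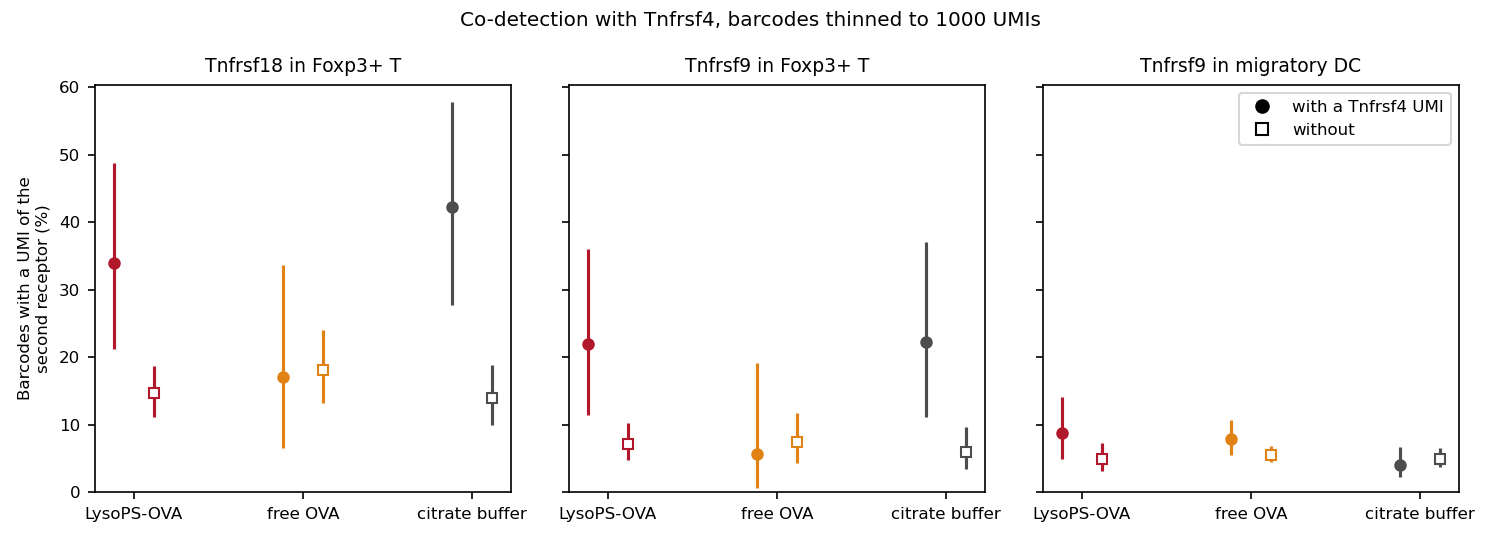
Share of barcodes (%, thinned to 1000 UMIs, bars for 95% binomial intervals) that hold Tnfrsf18 or Tnfrsf9 in Foxp3+ T cells, and Tnfrsf9 in migratory dendritic cells, by library, among barcodes with (filled) and without (open) a Tnfrsf4 molecule. In Foxp3+ T cells Tnfrsf18 was found in 34% of barcodes with Tnfrsf4 against 14.7% without with LysoPS-OVA, and in 42.2% against 14% with citrate buffer.

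Across 28 sums of a cell type in a library, 5701 genes were ranked by how closely their level followed each of the 9, by Pearson's r of log2(CPM + 10). These sums share libraries and cell types, so r is a description. The gene most like Tnfrsf4 was Tnfrsf9 (r = 0.924), followed by Itgb8 (0.890), the beta chain of an integrin that releases active TGF-beta, and Rgs1 (0.868), a regulator of chemokine receptor signalling. Tnfrsf9 had Rgs1 (0.935), Tnfrsf4 (0.924) and Itgb8 (0.878) nearest to it. Tnfrsf18 was followed by other genes, Ift80 (0.928), Prickle1 (0.921) and Agfg1 (0.912), and Cd27 by Ldlrad4 (0.977), the T cell kinase gene Lck (0.976) and the gating gene Cd3e (0.975). Tnfrsf1b had Stxbp3 (0.867), the gating gene S100a4 (0.848) and Smpdl3a (0.847) nearest, and Cd70 had Serpinb9b (0.928) and the gating chemokines Ccl22 (0.920) and Ccl17 (0.918). Tnfsf4, Tnfsf9 and Tnfsf18 did not reach the 50 CPM needed in any sum.

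The route from these receptors to NF-kB was described from a list of 18 adaptors, NF-kB subunits and targets. In Foxp3+ T cells 18 of 18 were measured and 0 were called in each of the 3 comparisons, with a list median of 0.04 log2 for LysoPS-OVA over citrate buffer (all measured genes -0.04), -0.01 for LysoPS-OVA over free OVA (all 0.01) and -0.00 for free OVA over citrate buffer (all -0.05). Bcl2 lay at 0.674 with LysoPS-OVA and 0.675 with free OVA relative to citrate buffer, and Tnfaip3 at 1.49 with LysoPS-OVA. In CD4 T cells without Foxp3, CD8 T and B cells Birc2 was called higher with free OVA than with citrate buffer (1.83, 1.69 and 1.74, backgrounds 1.88%, 1.92% and 2.11%). It was called lower with LysoPS-OVA than with free OVA (0.509, 0.545 and 0.599, backgrounds 0.463%, 0.582% and 0.522%), and Tnfaip3 higher in those CD4 T cells (1.66). In migratory dendritic cells 2 of 18 were called higher with LysoPS-OVA than with citrate buffer (list median 0.29, all genes -0.07), where 8.87% of all measured genes were called in either direction. These were Birc3, a ubiquitin ligase recruited by TRAF proteins, at 340.1 against 181 CPM (1.88, 1.66 to 2.13), and Map3k14, the kinase of the noncanonical NF-kB route, at 89.9 against 52.7 CPM (1.71, 1.34 to 2.16). With LysoPS-OVA against free OVA 5 of 18 were called higher and 0 lower (list median 0.45, all genes 0.16), where 12.9% of all measured genes were called, among them Traf3 at 151 against 66.5 CPM (2.27), Map3k14 (2.08), Birc3 (1.92) and Rel (1.63). With free OVA against citrate buffer 2 of 18 were called lower (list median -0.20, all genes -0.25), a share near the 12.6% of all measured genes called there, the survival genes Bcl2l1 (0.564) and Bcl2 (0.619).

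Other costimulatory genes moved in Foxp3+ T cells where the 5 receptors were not called. Of 4 measured genes of a list of 6, LysoPS-OVA was higher than citrate buffer for 3: Ctla4, the inhibitory receptor of regulatory T cells, at 1148 against 716 CPM (1.6, 1.49 to 1.72), Icos at 367 against 232 CPM (1.58, 1.4 to 1.8) and Cd86 at 35.1 against 17.8 CPM (1.98, 1.27 to 3.17). Of all measured genes 5.21% were called in that comparison. With free OVA only Cd86 was called against citrate buffer, at 40.5 CPM (2.28, 1.43 to 3.73), while Ctla4 stood at 1071 CPM (1.5, 1.39 to 1.62). The difference between these contrasts is that of LysoPS-OVA and free OVA, where 0 of 4 were called.

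Among 11 other TNF-family ligands 7 were measured in Foxp3+ T cells. Tnfsf8, which encodes the CD30 ligand, was higher than with citrate buffer in both ovalbumin libraries, at 107 CPM with LysoPS-OVA (2.06, 1.6 to 2.69) and 87.7 CPM with free OVA (1.69, 1.27 to 2.26), against 52 CPM. Tnf (29.9 against 13.8 CPM) and Tnfsf11, which encodes RANKL (32.5 against 15.8 CPM), were called higher with free OVA, where 6.97% of all measured genes were called. Of 10 other receptors, 3 were measured in Foxp3+ T cells and 0 were called in each comparison. In migratory dendritic cells Tnfrsf11a, the receptor RANK, stood at 113 CPM with LysoPS-OVA, against 66.1 CPM with free OVA (1.71, 1.42 to 2.07) and 64.6 CPM with citrate buffer (1.75, 1.42 to 2.16), and both were called. It was the only call among 4 measured receptors of that list against free OVA (list median 0.30 log2, all genes 0.16, background 12.9%). Against citrate buffer it was the only call among 5 (list median -0.34, all genes -0.07, background 8.87%).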

How the data were processed

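The deposited files hold raw UMI counts per gene and barcode for 3 libraries of enzymatically digested mesenteric lymph node, made with 10x 3' chemistry, per the labels. Per the submitters' processing notes, the authors used Cell Ranger 7.2.0 and the mm10 build for these counts. Annotation version, intron setting and strand setting are not given in the sources used here.

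A barcode was kept when it had 300 or more genes and no more than 10% of its UMIs from mitochondrial genes. Scrublet in scanpy called 1298 (7.49%), 1382 (5.92%) and 4477 (17.0%) doublets in LysoPS-OVA, free OVA and citrate buffer, which were removed. At 0.8% per 1000 barcodes, 16.7%, 22.9% and 23.1% would be expected. A barcode entered a lineage when its marker list summed to at least 3 UMIs (2 for small lineages) and to at least 3 times every other list. Each list holds 3 to 5 genes. Whole-cell-like barcodes had Malat1 at 0.5% or more and ribosomal protein genes at 10% or more of UMIs.

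UMIs were summed per gate and library and divided by the gate's UMIs (CPM). Intervals are exact Poisson for CPM, conditional binomial for ratios and Clopper-Pearson for shares. The calling rule was also run on simulated counts that held counting error only. The changes put in were larger than 1.5-fold and in well-counted genes. That run therefore cannot show how the calls hold between animals or libraries, or for genes at lower levels. With 1 library per group no p-value was computed, and 10 other settings were tried (doublets kept, whole-cell-like barcodes only, 5% mitochondrial limit, stricter gates, thinning before gating, mean per-barcode CPM, size factors, a pseudocount of 1 CPM, no low-count filter, no cycling barcodes), plus a stricter Foxp3 gate chosen after seeing the data.

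The 9 genes were measured in every gate, with 1 small gate not reported here, and from each of 4 further lists (45 genes) the 4 measured genes farthest from 0 per comparison could be named. The 9 genes, gates and lists were chosen with earlier results of these data known. Gene positions are GENCODE's on GRCm38, and promoters RefSeq's on GRCm38.p6. Computation used scanpy 1.11.5, pandas 2.3.3, scipy 1.17.1 and numpy 2.4.6 under Python 3.11.15, and plots matplotlib 3.10.9.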

Additional observations from a re-analysis of the deposited data

How the results depend on the processing

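The count of calls depended on the processing. For LysoPS-OVA against citrate buffer (1 call) it was 4 with doublet calls kept, 0 in whole-cell-like barcodes, 3 with stricter gates, 2 with the mean of per-barcode CPM, 3 with size factors, 5 with a pseudocount of 1 CPM, 2 without the low-count filter and 3 with Foxp3 at 2 or more UMIs, a gate chosen after seeing the data. For LysoPS-OVA against free OVA (2 calls) it was 1 with doublet calls kept, 0 in whole-cell-like barcodes, 1 at a mitochondrial limit of 5%, 1 with stricter gates, 0 after thinning before gating, 1 with size factors and 1 without cycling barcodes. For free OVA against citrate buffer (4 calls) it was 2 in whole-cell-like barcodes and 2 after thinning. In whole-cell-like migratory dendritic cells the called genes fell under the 30 UMIs needed. With LysoPS-OVA, free OVA and citrate buffer, Tnfrsf1b had 22, 27 and 11 UMIs, Cd27 6, 7 and 16, and Cd70 6, 11 and 15. Their calls could not recur in that setting, whatever the ratio. Only counts marked as moved are listed, so a setting not listed may still have changed a count by less. The counts are given without the share of all genes called in each setting. Thinning moved 30 of the ratios and left 23 in place, and whole-cell-like barcodes moved 8 and left 47. The cause of these shifts in ratio was not tested. The ratio of each called gene kept its direction over the 10 other settings, with ranges of 0.264 to 0.735 for Cd70 with LysoPS-OVA over citrate buffer, 0.291 to 0.62 for Cd70 with free OVA over citrate buffer, 1.14 to 1.78 for Tnfrsf1b, 1.86 to 2.96 and 0.216 to 0.37 for Cd27 in migratory dendritic cells, 0.501 to 0.814 for Tnfrsf4 in CD4 T cells without Foxp3 and 0.25 to 0.438 for Tnfrsf9 in CD8 T cells. At 2000 UMIs per barcode 12 co-detection shares moved beyond their interval and 45 did not. Depth limits the ligands: Tnfsf4 and Tnfsf18 had at most 40 UMIs in a library. No paired analysis was possible because each group has 1 library.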
